A study of Homo sapiens with 9 samples.

Results

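The regions described here are the open chromatin sites of MDA-MB-231 cells that lay away from promoters and carried a peak in each of the 9 ATAC-seq libraries of the series. They were chosen by peak presence and position. The peaks of all 9 lists on chromosomes 1 to 22 and X were merged where they shared at least 1 bp, and a region was kept when every list had a peak in it and when it lay more than 1 kb from the transcription start site (TSS) of every protein-coding gene. Merging gave 118716 regions. A peak was present in every list at 40605 of them, and 29515 of those were distal. These 29515 regions, called constitutive distal regions below, made up 24.9% of all regions, 28.4% of the 103889 distal regions and 72.7% of the regions present in every list. The remaining 11090 regions with a peak in every list lay within 1 kb of a TSS and are called promoter-proximal regions. Since the rule asked for a peak in every list, a site that lost its peak under any condition is not among them, and nothing can be read from their presence itself.

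MDA-MB-231 is a human triple-negative breast cancer (TNBC) cell line. In ATAC-seq, the Tn5 transposase inserts adapters where DNA is not covered by nucleosomes. The control shRNA (shCtrl), shEZH2 and shE2F1 had 2 libraries each and shSUZ12 had 1, all from cells exposed to lentivirus for 24 h and then kept in 2 μg/ml puromycin for 72 h. A further library was made from cells given DMSO, which the labels also call WT, and another from cells given GSK126, an inhibitor of the EZH2 methyltransferase, whose dose and time the labels do not give. EZH2 and SUZ12 are the methyltransferase and a core subunit of Polycomb repressive complex 2 (PRC2), and E2F1 is a transcription factor of the cell cycle. The extent of each knockdown cannot be read from peak lists. The labels do not say that replicates came from separate cultures, so tests between them cover only the spread between these libraries.

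Distal open sites are largely enhancers, where transcription factors displace nucleosomes and act on promoters at a distance, and insulators, where the zinc finger protein CTCF anchors chromatin loops. In mesenchymal breast cancer cells of this kind, enhancers are known to be bound by AP-1, a dimer of FOS and JUN proteins, often beside TEAD factors, the DNA-binding partners of YAP and TAZ. Promoters differ from them in being rich in CpG dinucleotides and in sites for SP, KLF and ETS factors.

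The sequences of 7 of the regions, read from GRCh38 on the plus strand over 201 bases centred on the strongest summit, show what the sites contain. The first 4 are among the 10 regions whose lowest percentile over the 9 lists was highest, and the last 3 had the smallest p for a difference with shEZH2 (VEGFC higher) or shE2F1 (GNAT3 higher, SLC10A2 lower). Capitals mark matches on either strand to the AP-1 motif TGAGTCA, the TEAD motif CATTCC, the CTCF consensus and the cyclic AMP response element TGACGTCA, the last added after these sequences were seen.
Region near ARHGAP32, chr11:129143392-129143592: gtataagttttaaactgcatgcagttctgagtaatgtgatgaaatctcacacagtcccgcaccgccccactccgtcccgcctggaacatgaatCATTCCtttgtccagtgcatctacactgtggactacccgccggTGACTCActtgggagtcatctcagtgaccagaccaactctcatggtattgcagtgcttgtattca
Region near FBXO28, chr1:223992565-223992765: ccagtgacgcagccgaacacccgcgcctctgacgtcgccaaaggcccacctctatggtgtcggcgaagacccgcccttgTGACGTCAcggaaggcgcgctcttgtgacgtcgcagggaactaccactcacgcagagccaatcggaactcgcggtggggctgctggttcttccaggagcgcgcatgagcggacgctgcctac
Region near FABP2, chr4:119454577-119454777: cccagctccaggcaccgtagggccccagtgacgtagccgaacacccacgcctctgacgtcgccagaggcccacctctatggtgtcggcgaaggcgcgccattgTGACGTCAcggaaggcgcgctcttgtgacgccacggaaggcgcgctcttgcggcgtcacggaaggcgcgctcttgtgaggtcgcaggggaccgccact
Region near LMLN, chr3:198071978-198072178: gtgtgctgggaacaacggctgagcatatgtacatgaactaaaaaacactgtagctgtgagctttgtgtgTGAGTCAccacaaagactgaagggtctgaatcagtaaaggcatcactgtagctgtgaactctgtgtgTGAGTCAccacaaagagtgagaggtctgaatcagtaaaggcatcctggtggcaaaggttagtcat
Region near VEGFC, chr4:176753224-176753424: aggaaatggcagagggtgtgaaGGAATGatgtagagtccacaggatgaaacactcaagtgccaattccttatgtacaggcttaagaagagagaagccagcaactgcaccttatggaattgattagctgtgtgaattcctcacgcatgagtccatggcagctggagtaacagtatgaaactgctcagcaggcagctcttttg
Region near GNAT3, chr7:80324100-80324300: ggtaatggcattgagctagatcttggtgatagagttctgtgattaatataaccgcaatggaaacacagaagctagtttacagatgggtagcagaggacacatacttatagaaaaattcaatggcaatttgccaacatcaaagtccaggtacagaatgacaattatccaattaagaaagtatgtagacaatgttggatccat
Region near SLC10A2, chr13:103883198-103883398: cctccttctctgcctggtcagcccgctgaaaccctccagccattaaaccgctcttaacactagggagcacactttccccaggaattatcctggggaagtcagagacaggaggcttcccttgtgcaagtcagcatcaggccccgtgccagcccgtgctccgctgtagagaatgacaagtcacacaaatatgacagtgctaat

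The region near ARHGAP32 held a TEAD and an AP-1 match within 100 bp of its summit. The region near LMLN held 2 AP-1 matches in a repeated stretch. The windows near FBXO28 and FABP2, on different chromosomes, shared a run of 33 identical bases, and those of the strong regions near ALG1L2 and ADRA2C shared one of 26 bases, while no other pair of the 10 strongest windows shared more than 10. These 4 lay within 1 kb of the TSS of another annotated gene that the distance rule did not count. Other strong regions also lay within 1 kb of an uncounted start. They were those near LMLN (start of RNU6-821P), ALKBH3 (a start of HSD17B12) and SGCE (another start of SGCE). The 31 bases around the summit occurred once in chromosomes 1 to 22, X and Y for each of the 10, and for 28515 of the 29515 constitutive distal regions (96.6%). The windows near SLC10A2, GNAT3 and VEGFC held no AP-1 match, which says only that these letters were not there.

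The lists held from 58626 to 85812 peaks. Summit tag numbers could be worked back from the enrichment and p of each peak. At the constitutive distal regions their median was 52 and 61 with shCtrl, 45 and 32 with shEZH2, 33 and 53 with shE2F1, 51 with DMSO, 45 with GSK126 and 53 with shSUZ12. The second shEZH2 and first shE2F1 libraries, which had the fewest summit tags, decided membership most often. Of the 7542 distal regions with a peak in 8 lists, just outside the rule, 2874 lacked one only in the second shEZH2 library and 1982 only in the first shE2F1 library. Their median within-list percentile was 46.6. Without the second shEZH2 library 32394 regions would have been kept. At the promoters, each of the mesenchymal and basal markers VIM, CD44, AXL, MSN, CAV1 and EGFR had a peak in all 9 lists. The luminal markers were mixed, with a peak at GATA3 in 0 lists, at GRHL2 in 1, at SPDEF in 6, at PGR and FOXA1 in 7, at ESR1 and CDH1 in 8 and at EPCAM in 9. The blood markers PTPRC and CD3E and the neural markers SOX1, PAX6 and OLIG2 had a promoter peak in 0 lists.

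Constitutive distal regions were strong peaks, though weaker and narrower than the promoter-proximal regions found in every list. Strength is given as the percentile of a peak's fold enrichment, the ratio to local background, within its own list. The median percentile was 70.3 and 71.2 with shCtrl, 67.6 and 60.7 with shEZH2, 64.3 and 71.1 with shE2F1, 68.4 with DMSO, 65.8 with GSK126 and 66.9 with shSUZ12. The promoter-proximal regions stood higher in each library, between 70.7 and 80.1, and the difference averaged -8.58 ± 2.64 percentile points (SD, n = 9 libraries; exact sign-flip permutation test, two-sided, p = 0.00391, adjusted p = 0.00521 over 4 tests). This p is the smallest that 9 libraries allow, and since the libraries share the same sites it covers only the spread between libraries. With −log10 p in place of fold enrichment the difference was -18.2 points. Distal regions with a peak in only 1 to 8 lists had medians of 29.8 to 33.2, values that the rule itself pulls apart from those of the constitutive regions and that carry no test.

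**Figure D1:**
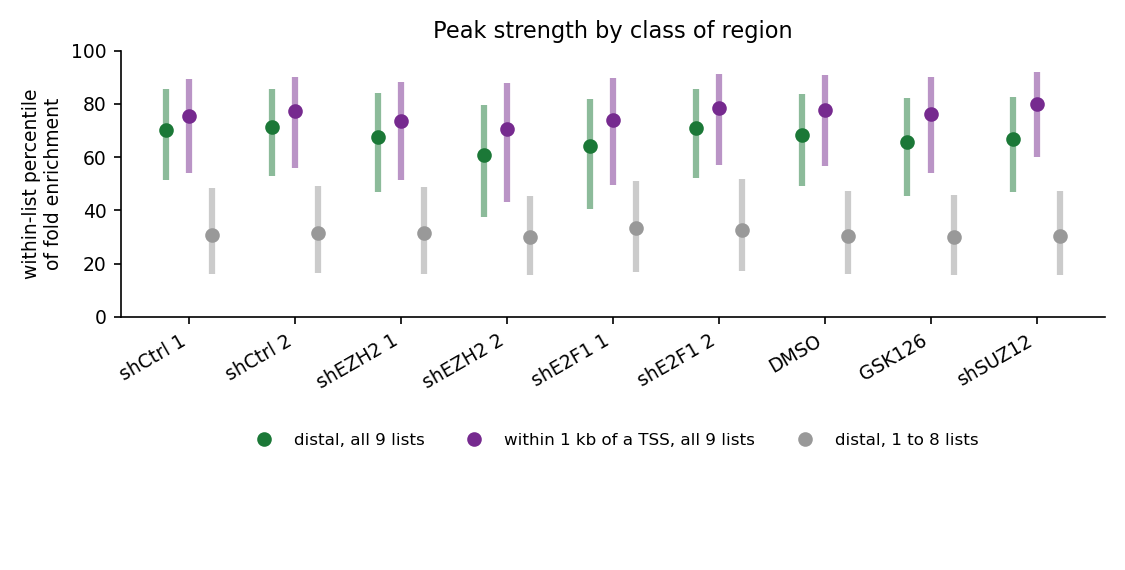
Within-list percentile of fold enrichment (vertical axis, 0 to 100) in each library (horizontal axis), as the median (point) and the interquartile range (bar) for constitutive distal, promoter-proximal and other distal regions. The constitutive distal medians lie between 60.7 and 71.2, below the promoter-proximal medians of 70.7 to 80.1 in the same library, and the other distal medians lie between 29.8 and 33.2.

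The peaks were also narrower, with median widths of 403 to 566 bp against 775 to 1040 bp at promoter-proximal regions. The difference averaged -456 ± 42.4 bp (SD, n = 9; exact sign-flip permutation test, two-sided, p = 0.00391, adjusted p = 0.00521). Merged over the lists, the constitutive distal regions had a median width of 750 bp, ranged from 236 to 3246 bp and covered 23.8 Mb in all. Most held a single site, since 80.6% had 1 peak in every list and in 83.3% the 9 summits lay within 150 bp of their median position. Strength was not uniform among them. Of the regions, 41.6% were above the median of every list, 9.05% were below it in every list and 49.4% were above it in some lists and below it in others. A core of 1070 regions (3.63%) was in the top 10% of every list.

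By its lowest percentile over the 9 lists, the strongest region lay in an intron of ARHGAP32, a GTPase-activating protein, at chr11:129143175-129143753. Its fold enrichment was 24.2 and 23.7 with shCtrl, 21.3 and 24.6 with shEZH2, 19.7 and 21.3 with shE2F1, 24.5 with DMSO, 25.7 with GSK126 and 26.3 with shSUZ12, and its percentile was at least 99.98 in every list. The shEZH2 libraries overlapped shCtrl in raw fold enrichment, and both shE2F1 libraries were below both shCtrl libraries. Raw values differ in scale, with medians over the constitutive distal regions of 9.25 and 9.85 with shCtrl and 7.59 and 8.71 with shE2F1. After quantile normalization the log2 difference from shCtrl was 0.05 ± 0.08 (SE) with shEZH2 and -0.05 ± 0.08 with shE2F1 (limma, adjusted p = 0.892 and 0.917). The next by that measure were intergenic, near ALG1L2 at chr3:130111423-130112028 and near FBXO28 at chr1:223992444-223993225, with lowest percentiles of 99.94 and 99.93. By fold enrichment the order differed between lists, with 26.4 near FBXO28 in the second shCtrl library and 21.1 in the first. At the other end, the region whose highest percentile was lowest lay 9.14 kb from the TSS of LIF, a cytokine of the interleukin-6 family. It was below percentile 1 of every list, between 0.11 and 0.94, with fold enrichments of 2.4 to 2.8.

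By position, 56.1% of the constitutive distal regions (95% Wilson interval 55.5 to 56.6) had their strongest summit between protein-coding genes and 41% (40.5 to 41.6) in an intron, by GENCODE v44 canonical transcripts. Coding exons held 1.2% (1.08 to 1.33) and 3′ UTRs 1.61% (1.47 to 1.76). Among the other distal regions the shares were 52.7% intergenic, 43.2% intronic and 2.23% in coding exons. These intervals cover counting error over regions, which are not replicates. The median distance to the nearest protein-coding TSS was 39.2 kb, against 44.8 kb for other distal regions, and the largest was 2822 kb. The share of distal regions that were constitutive was 29.9% between 1 and 5 kb from a TSS, 30% between 10 and 50 kb and 19.9% beyond 500 kb. The nearest ones were weak, with a median mean percentile of 44.6 between 1 and 5 kb, and the values were 62.7 between 5 and 10 kb, 66.6 between 10 and 50 kb and 70.8 beyond 500 kb. Distance to a canonical protein-coding TSS does not exclude other start sites. Of the constitutive distal regions, 5659 (19.2%) lay within 1 kb of some other annotated TSS, against 12.7% of other distal regions. They included 3049 near an alternative start of a protein-coding gene and 2310 near a long noncoding RNA. Their median mean percentile was 62.7, and that of the rest was 66.7.

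Both weak and middling peaks lay at the distance limit. The closest constitutive distal regions lay 1001 bp from the TSS of GNG12, 1001 bp from that of FTL and 1002 bp from that of TYW1B, at percentiles of 3.1 to 33.3, 3.1 to 18.4 and 44.3 to 58.9 over the 9 lists. The promoter-proximal regions nearest to the limit, 994 bp from the TSS of EPAS1, GARIN1B and BCL2L15, had percentiles of 2.9 to 12.3, 45.6 to 79.5 and 15.3 to 61.9.

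Some genes were surrounded by constitutive distal regions. Of 19962 protein-coding genes, 10190 (51%) had the nearest TSS to at least 1 of them, with a median of 1 per gene, and 412 genes had 10 or more. MYC, the growth-promoting transcription factor, had the most, 45 regions from 6.76 to 930 kb from its TSS, with mean percentiles from 12.7 to 98.7. It was followed by SOX9, a developmental transcription factor, with 38 regions, ETS1 with 29 and KLF6 with 28, both transcription factors, TNS3, a focal adhesion protein, with 27, ZFP36L1, an RNA-binding protein of mRNA decay, with 26, RUNX1 and the PRC2 accessory protein JARID2 with 25 each, and the Notch ligand JAG1 with 24. DPF3, TFAP2A and TRIB1 shared the next place with 23. The regions around JAG1 were the strongest of these sets, with a median mean percentile of 80.8 and none below 40.7, and those around KLF6 the weakest by median, at 55.7. The count around a gene depends on the size of the intervals to its neighbours, and nearness does not show which gene a site acts on.

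Across the gene lists, all 16 mesenchymal and basal-like genes could be placed and 15 had at least 1 constitutive distal region, 81 in all and a mean of 5.06 per gene. The mean over all genes was 1.48. Other lists also stood above it, with means of 5 for AP-1, 4.71 for PRC2 and 4.25 for YAP and TEAD. The mean was 3.5 for NF-kB and cytokines and 2.42 for the cell cycle and E2F. EGFR, the epidermal growth factor receptor, had 12, with a highest mean percentile of 95.2, CD44, a hyaluronan receptor of basal-like cells, had 11, reaching 94.9, and CDH2, the mesenchymal N-cadherin, had 10, reaching 94.2. ZEB1, a repressor of epithelial genes, had 2, both near percentile 97.6. Of the 16 luminal and epithelial genes, 13 had a region, 54 in all and a mean of 3.38. They included GATA3 with 9, ELF3 and EPCAM with 7 each and ESR1, the estrogen receptor gene, with 4, so sites near luminal genes were open as well.

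All 10 AP-1 genes had a constitutive distal region nearest to them, 50 in all. JUN had 14, reaching a mean percentile of 98.3, FOSL2 had 13, reaching 97.6, and FOSL1 had 1 at 13.4. Of the 12 YAP and TEAD genes 11 had a region, 51 in all, among them 10 near the YAP target CCN1 and 9 near TEAD1. The NF-kB and cytokine list had 42 regions at 11 of 12 genes, with 9 near LIF, 8 near NFKBIA and 5 near IL6. The cell cycle and E2F list had 29 regions at 7 of 12 genes, most of them near the kinase gene CDK6 and the cyclin gene CCND1, with 9 each, and none near CCNB1, PLK1, E2F5, E2F1 or PCNA. Of the 7 PRC2 genes 4 had one, 33 in all, 25 of them near JARID2, 5 near EED and 2 near EZH2. Of 12 developmental genes that PRC2 commonly silences 6 had one, 13 in all, a mean of 1.08 and the lowest of these lists. OLIG2, whose promoter had no peak, had 3 within 16.1 kb.

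Constitutive distal regions also lay in groups. Joined where they were no more than 12.5 kb apart, they formed 20569 groups, of which 14958 were single regions and 315 held 5 or more, with 1862 regions (6.31%). The largest was 13 regions over 56.6 kb at chr6:26295605-26352205, nearest to the histone gene H4C8 or the butyrophilin gene BTN3A2, with mean percentiles from 3.88 to 99.6. Another held 11 regions, all nearest to BCAS1, over 67.2 kb, with a median mean percentile of 75.9, and 12 lay around ARF6 and VCPKMT over 58.5 kb, with a median of 40.5. Members of one group thus spanned weak and strong peaks. Per Mb, the density was highest on chromosome 19, at 19.3, and lowest on X, at 4.47.

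AP-1 was the leading motif of these regions. Within 100 bp of the strongest summit, TGAGTCA on either strand was present in 38.3% of the constitutive distal regions (95% Wilson interval 37.7 to 38.8), 24.5% of other distal regions, 17.7% of distal regions found in a single list and 4.61% of promoter-proximal regions. Over all merged regions the share was 25.5%. Read at each library's own summits, the constitutive regions had AP-1 in 37.9% ± 0.287 and other distal peaks of the same list in 27.6% ± 1.46 (SD, n = 9). The difference of 10.2 ± 1.54 points was positive in 9 of 9 libraries (exact sign-flip permutation test, two-sided, p = 0.00391, adjusted p = 0.00521). At matched strength the difference was smaller. Within bands of 10 percentile points of fold enrichment, weighted by the constitutive regions, the difference was 3.97 points (exact sign-flip permutation test, p = 0.00781, two-sided). This p is above 0.00391, the value reached when all 9 libraries have the same direction.

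The AP-1 share was higher in each stronger decile of the constitutive regions by mean percentile, from 28.9% in the weakest to 50.8% in the strongest, and it was 52.1% in the 1070 regions in the top 10% of every list. TEAD (CATTCC) was present in 21.3% of them, 17.3% of other distal regions and 7.16% of promoter-proximal regions, and in 17.1% of all regions. RUNX (TGTGGTT) followed the same order with 8.73%, 7.19% and 1.76% (6.91% of all). AP-1 and TEAD occurred together in 7.72%, and 5.17% held 2 or more AP-1 matches. Motifs typical of promoters were scarcer than at promoter-proximal regions and more frequent than at other distal regions. SP/KLF (GGGCGG) was found in 13.9%, against 69.2% of promoter-proximal and 8% of other distal regions (16.2% of all). ETS (CCGGAAG) was found in 2.4%, against 15.5% and 1.18% (2.89% of all). In the weakest decile the SP/KLF share was 22.1%. E2F motifs (TTTCCCGC or TTTGGCGC) were found in 148 regions (0.501%), against 2.15% of promoter-proximal regions, 0.34% of other distal regions and 0.564% of all. The windows had a median GC content of 51.2% and 3 CpG, against 68.7% and 19 at promoter-proximal regions and 49.3% and 2 at other distal regions.

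**Figure D2:**
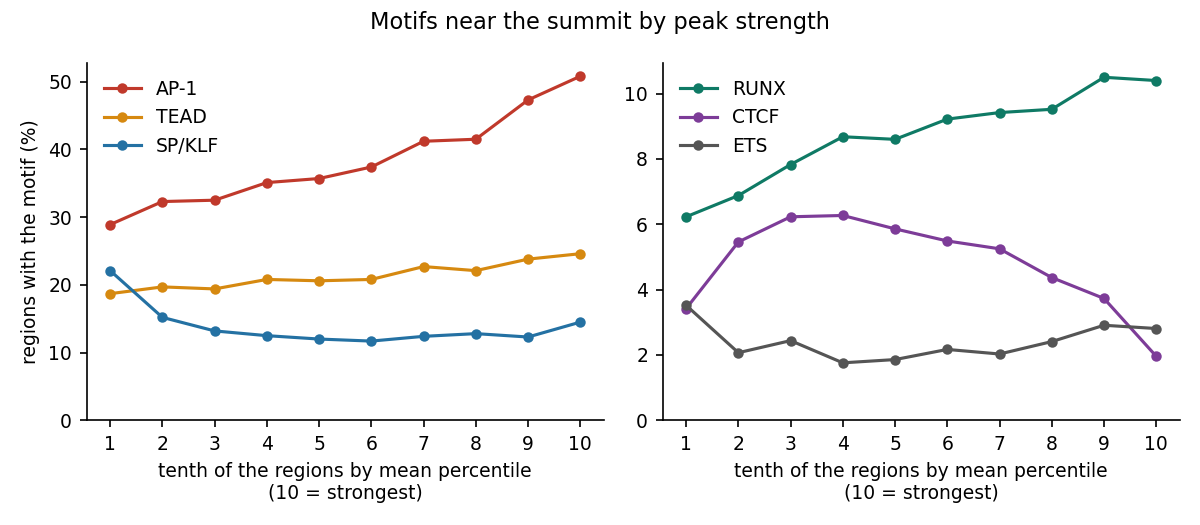
Share of constitutive distal regions with a motif within 100 bp of the strongest summit (vertical axes, percent, on different scales in the panels) by decile of mean within-list percentile, 10 being the strongest (horizontal axes). AP-1 runs from 28.9% to 50.8%, RUNX from 6.23% to 10.4%, and CTCF from 3.42% in the weakest decile through 6.27% in decile 4 to 1.96% in the strongest.

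CTCF showed another pattern. Its consensus was present in 1418 constitutive distal regions, 4.8% (4.57 to 5.05), and in 3.81% of all regions. The share was highest in the middle of the range of strength, 6.27% in decile 4, and was 1.96% in the strongest decile. Counted once per region, CTCF was more frequent in constitutive than in other distal regions, 4.8% against 3.98%, and the share was 7.33% in distal regions present in 8 lists and 1.81% in those present in 1. Counted at each library's own summits the order was the reverse, 4.69% ± 0.0884 against 5.33% ± 0.787 (SD, n = 9). That difference of -0.637 ± 0.73 points passed the test (exact sign-flip permutation test, two-sided, p = 0.0391, adjusted p = 0.0391) but was negative in 7 of 9 libraries only, and both shE2F1 libraries went the other way, with 4.55% against 3.84% and 4.72% against 4.39%. Leaving out any 1 of the other 7 libraries moved p to between 0.0625 and 0.0781, so no direction is given for CTCF.

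How stable the ranks were across conditions was asked first for the libraries as a whole. Fold enrichment over the 29515 regions had a Spearman correlation of 0.838 between the shCtrl replicates, 0.778 between those of shEZH2 and 0.773 between those of shE2F1. Between libraries of different groups it ranged from 0.673, for the second shEZH2 and first shE2F1 libraries, to 0.837, for DMSO and GSK126. These values describe agreement across regions, which share depth and base composition within a library. Over the promoter-proximal regions the correlation was higher for all 36 pairs, from 0.857 to 0.932.

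**Figure D3:**
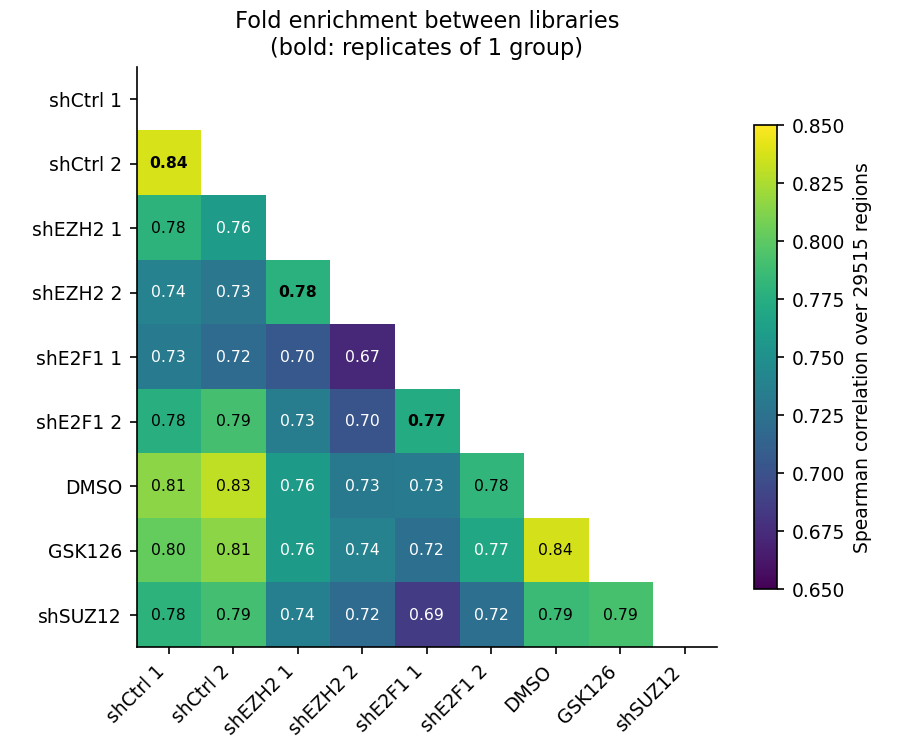
Spearman correlation of fold enrichment over the constitutive distal regions for each pair of the 9 libraries, from 0.673 to 0.838, with replicates of 1 group in bold. The shCtrl, DMSO and GSK126 libraries form the block of highest values, and the lowest value is that of the second shEZH2 and first shE2F1 libraries.

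To compare strength between libraries, each region was ranked among the 40605 regions present in all lists. The SD of this common rank over the 9 libraries had a median of 12.2 percentile points, against 8.32 at promoter-proximal regions. By decile of strength it was 5.03 in the weakest, 15.8 in deciles 5 and 6 and 5.89 in the strongest. The deciles come from the same values on a bounded scale, which keeps the SD small at both ends. Stability is therefore not compared between deciles. The mean rank with shEZH2 differed from that with shCtrl by a median of 8.67 points in either direction, and that with shE2F1 by 8.49 points. Single replicates of a group differed by 8.62 points for shCtrl and by 10.7 points for both shEZH2 and shE2F1. Differences between means of 2 libraries and between single libraries are not the same quantity, and their sizes were not compared. Both shEZH2 libraries ranked above both shCtrl libraries at 6354 of the 29515 regions (21.5%) and below both at 5992 (20.3%), against 21.7% and 19.1% of all 40605 regions. With shE2F1 the counts were 5585 above (18.9%) and 6430 below (21.8%), against 20.5% and 19.6%. The constitutive distal regions make up 72.7% of that background, so their shares lie close to it by construction. No share was taken for the promoter-proximal regions alone, and nothing is read from the closeness.

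No single region passed the test. In a limma fit across the 40605 regions, on quantile-normalized log2 fold enrichment in the shCtrl, shEZH2 and shE2F1 libraries, 0 constitutive distal regions had an adjusted p under 0.05 for either knockdown (0% of all regions in both comparisons), and the smallest adjusted p was 0.113 for shEZH2 and 0.0587 for shE2F1. At an unadjusted p under 0.05 there were 3345 (11.3%) with shEZH2 and 3242 (11%) with shE2F1, against 9.29% and 8.9% of all 40605 regions. Those 40605 include the constitutive distal regions, so the promoter-proximal shares are lower than these background values. The count depended on the measure. With −log10 p in place of fold enrichment, limma called 73 regions higher and 44 lower with shEZH2, against 0.182% and 0.116% of all regions, and 72 higher and 22 lower with shE2F1, against 0.177% and 0.0542%. With the percentile rank of fold enrichment, limma called 0 for both. Both knockdowns are compared with the same shCtrl libraries, so their values at a region are not independent.

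Of the regions with the smallest p, the first with shEZH2 lay in an intron of VEGFC, a lymphangiogenic growth factor, at chr4:176752985-176753536. Its within-list percentile was 29.8 and 30.3 with shCtrl, 93.3 and 97.7 with shEZH2, 91.2 and 78.6 with shE2F1, 11.5 with DMSO, 35.0 with GSK126 and 26.7 with shSUZ12. Both knockdowns thus stood far above shCtrl, and the other libraries did not. The log2 difference was 1.52 ± 0.20 (SE) with shEZH2 (adjusted p = 0.113) and 1.14 ± 0.20 with shE2F1 (adjusted p = 0.109). With −log10 p as the measure in limma the adjusted p was 0.00386 and 0.0338. Both measures come from the same peaks of the same libraries. For regions picked by a small p, values by −log10 p, here and below, are therefore not independent support. A region at chr7:80324004-80324516, 188 kb from GNAT3, which encodes the taste G protein gustducin, was the first with shE2F1. It stood at 29.8 and 25.9 with shCtrl, 94.5 and 83 with shEZH2, 97.6 and 93.6 with shE2F1, 47.4 with DMSO, 35.0 with GSK126 and 83.4 with shSUZ12. Here shSUZ12 was also high. The log2 difference was 1.35 ± 0.18 with shEZH2 (adjusted p = 0.113) and 1.53 ± 0.18 with shE2F1 (adjusted p = 0.0587), and by −log10 p the adjusted p was 0.00423 and 0.0038. Intron regions of ITSN2, an endocytic scaffold protein, and BCAT1, a branched-chain aminotransferase, followed for shEZH2 with differences of 1.20 and 1.22, and a region near ODAPH with 1.22 (adjusted p = 0.162 for each, and 0.0186, 0.0203 and 0.00386 by −log10 p). At BCAT1 the shCtrl libraries, at 14.3 and 19.3, were the lowest. There shEZH2 was at 72.9 and 76.0, DMSO at 73.0 and GSK126 at 63.2. The ODAPH region was at 54.4 and 25.9 with shCtrl and 94.7 and 90.4 with shEZH2. It was at 78.7 with DMSO and 73.1 with GSK126. At ITSN2 DMSO was at 54.3 and GSK126 at 19.2, against 24.5 and 38.6 with shCtrl.

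Regions with the smallest p for a lower value with shEZH2 also missed the adjusted threshold by fold enrichment. One in an intron of LDHAL6A was at 97 and 96 with shCtrl, 56.2 and 37.5 with shEZH2, 88.9 and 97.8 with shE2F1, 96.4 with DMSO, 78.7 with GSK126 and 71.4 with shSUZ12. The shEZH2 libraries were the low ones, by -1.04 ± 0.17 on the log2 scale (adjusted p = 0.162). A region near CORO2B, an actin-binding coronin, was at 96.8 and 94.5 with shCtrl, 31.5 and 37.1 with shEZH2 and 44.6 with shSUZ12, and between 79.4 and 96.9 in the remaining libraries. The log2 difference was -1.21 ± 0.19 with shEZH2 (adjusted p = 0.162) and, from the single library, -1.17 with shSUZ12. Others lay in an intron of ZNF169 and in an intron of ST3GAL3, nearest to the TSS of ARTN, at -0.89. With −log10 p as the measure the adjusted p was 0.00699 for LDHAL6A, 0.0312 for CORO2B, 0.0774 for ZNF169 and 0.00331 for ARTN.

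With shE2F1, the next higher region lay 18.5 kb from AQP8, a water channel, at chr16:25197767-25198407, with percentiles of 29.8 and 12.9 in shCtrl, 65.1 and 61.7 in shEZH2, 94.2 and 88.7 in shE2F1, 39.6 with DMSO, 29.8 with GSK126 and 22 with shSUZ12. The difference with shE2F1 was 1.5 ± 0.20 (adjusted p = 0.109). A region 83.8 kb from EED, a core PRC2 subunit, was at 8.9 and 14.4 with shCtrl, 69.2 and 76.0 with shE2F1 and between 26.2 and 45.8 in the other libraries, a difference of 1.25 ± 0.19 (adjusted p = 0.109). An intron of FYB1 differed by 0.97 with shE2F1 and 0.24 with shEZH2, and a region near CBLN1 by 1.31 and 1.11. The CBLN1 region was at 48.4 and 25.9 with shCtrl and 87.2 and 98.5 with shE2F1. It was at 77.4 with DMSO, 74.5 with GSK126 and 35.8 with shSUZ12. The lower region with the smallest p lay 817 kb from SLC10A2, the ileal bile acid transporter gene, at chr13:103883070-103883605. It was at 99.7 and 99.97 with shCtrl and 84.8 and 69.5 with shE2F1, and between 96.4 and 99.7 in the other 5 libraries, and the difference was -0.99 ± 0.15 (adjusted p = 0.109). A region near DNASE1L3, a secreted nuclease gene, was at 82.7 and 83.4 with shCtrl, 16.6 and 18.0 with shE2F1 and between 61.5 and 78.5 elsewhere, with a difference of -1.21 ± 0.19 (adjusted p = 0.109). An intron of MAP2K2, which encodes the kinase MEK2, differed by -1.17 with shE2F1 and 0.11 with shEZH2, an intron of YTHDC2 by -1.18 and -1.05, and one of FGD6 by -1.10 and -0.61. With −log10 p as the measure the adjusted p with shE2F1 was 0.0103 for AQP8, 0.00876 for FYB1, 0.0101 for EED, 0.0202 for CBLN1, 0.0368 for DNASE1L3 and 0.00585 for MAP2K2, and it was 0.0541 for SLC10A2, 0.0607 for YTHDC2 and 0.142 for FGD6.

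**Figure D4:**
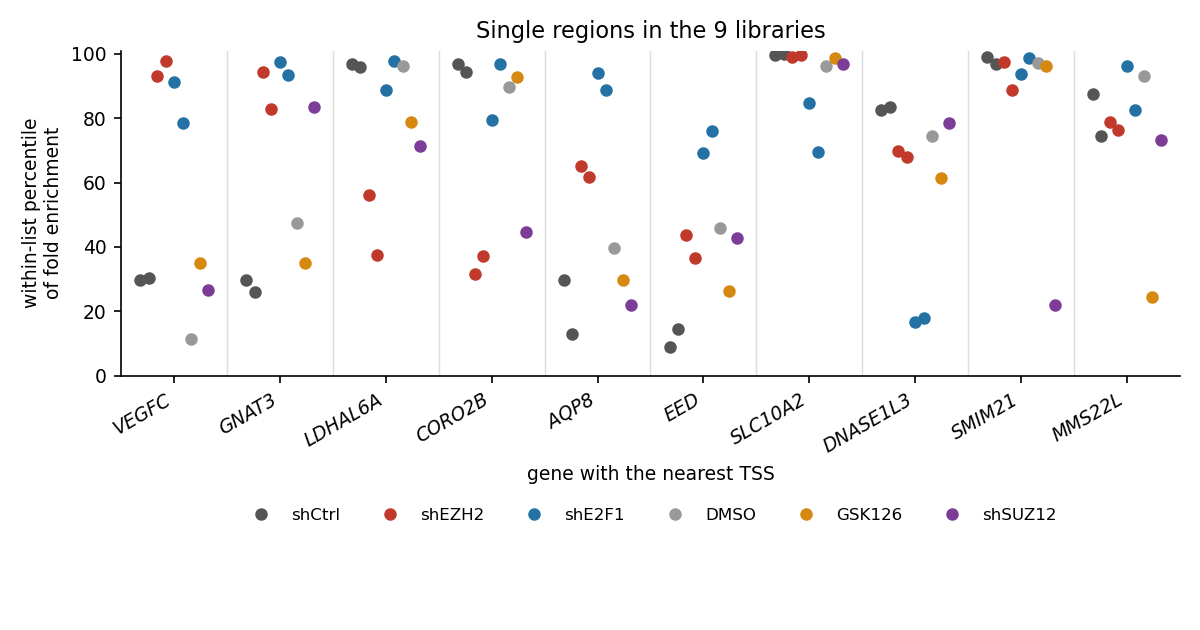
Within-list percentile of fold enrichment (vertical axis) at 10 constitutive distal regions, named by the nearest TSS (horizontal axis), with 1 point for each of the 9 libraries. The first 8 were chosen for a small p with a knockdown, which favours replicates that lie together, as for VEGFC (93.3 and 97.7 with shEZH2, 29.8 and 30.3 with shCtrl). At SMIM21 and MMS22L the single shSUZ12 and GSK126 libraries, at 22 and 24.4, lie apart from the rest.

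For shSUZ12 and GSK126 there was 1 library each and no test. Against the mean of the shCtrl libraries, 14 constitutive distal regions were more than 2-fold higher and 110 lower with shSUZ12 after quantile normalization, against 0.0345% and 0.273% of all regions. Against the first or the second shCtrl library alone, 249 and 214 differed by more than 2-fold in either direction, against 0.628% and 0.542% of all regions. Against DMSO 223 differed with shSUZ12 (0.566% of all regions). GSK126 differed from DMSO by more than 2-fold at 45 higher and 34 lower regions, against 0.113% and 0.0936% of all, and from the shCtrl mean at 52 (0.133% of all). Between replicates, 94 regions differed by as much for shCtrl (0.234% of all regions), 175 for shEZH2 (0.473%) and 193 for shE2F1 (0.515%). The GSK126 count thus lay below each of the replicate counts, and those of shSUZ12 against single libraries lay above them.

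The largest differences with shSUZ12 were at a region 446 kb from ATP23, at percentiles 14.3 and 21.5 with shCtrl and 93.2 with shSUZ12 (log2 difference 1.63), and near SMIM21, at 99.0 and 96.9 with shCtrl and 22 with shSUZ12 (-1.72). At ATP23 the other 6 libraries ranged from 34.4 to 69.5, so the shCtrl libraries were the lowest there. At SMIM21 the other 6 libraries ranged from 88.9 to 98.7, so the single shSUZ12 library stood alone. Intron regions of TANC1 and ACSL3, a long-chain acyl-CoA synthetase, differed by -1.62 and -1.50, and regions near GULP1 and PARP11 by 1.37 each. With GSK126 large differences were 1.27 near COL6A3, a collagen gene, 1.26 in an intron of TMEM104 and 1.23 in one of SFT2D2, with -1.38 in an intron of MMS22L and -1.32 in one of SLC38A9. At COL6A3 the DMSO library, at percentile 35.2, was the low one, below the other 8, which ranged from 57.5 to 93.3. DMSO was also the lowest library at TMEM104, at 35.2 against 60.6 to 92.4 in the others, and at SFT2D2, at 15.9. At SFT2D2 shCtrl was at 85.5 and 93.8, GSK126 at 77.1 and the first shE2F1 library at 16.1. At MMS22L the GSK126 library, at 24.4, was below the other 8, from 73.3 to 96.3.

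The rank of regions with a given motif was compared between libraries. For each motif and library, the median common rank of the constitutive distal regions without the motif was subtracted from that of regions with it. For CTCF the difference was -1.12 and 0.677 percentile points with shCtrl and -0.341 with DMSO. It was -7.15 and -7.92 with shEZH2, -11.1 and -6.94 with shE2F1, -3.73 with GSK126 and -3.42 with shSUZ12. The 4 libraries of shEZH2 and shE2F1 were thus below both shCtrl libraries. With 2 libraries against 2 the smallest p of an exact permutation test is 0.333, so none was used. The median log2 difference of CTCF-bearing regions was -0.09 with shEZH2 and -0.12 with shE2F1, against 0.01 and -0.01 for those without. Their windows had a median GC content of 56.7%, against 51.2% for all constitutive distal regions. The libraries with the fewest summit tags were 1 of each knockdown. By the most frequent local background, worked back in the same way, GSK126 lay between these libraries, at 1.46 tags. The second shEZH2 library was at 1.41 and the first shE2F1 library at 1.5. The part of base composition and depth in the CTCF differences was not tested.

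Regions with FOX and GATA motifs ranked lower with shEZH2 than with shE2F1. Those with FOX (TGTTTAC, 3.26% of the regions and 3.01% of all) differed from the rest by 1.81 and 1.41 points with shCtrl, -2.8 and -3.24 with shEZH2 and 4.36 and 4.89 with shE2F1. Those with the GATA motif (AGATAAG, 2.82% and 2.9% of all) differed by 2.58 and 2.52, -0.254 and -3.07, and 7.47 and 7.07 in the same order. For both motifs, the shEZH2 libraries were below and the shE2F1 libraries above both shCtrl libraries. The shSUZ12 library, at 0.112 for FOX and 0.732 for GATA, was also below both. The DMSO and GSK126 libraries, at 4.76 and 4.95 for FOX and 3.49 and 3.83 for GATA, also lay above shCtrl, and for FOX the DMSO library stood as high as shE2F1. RUNX-bearing regions stood at 6.52 and 6.11 with shCtrl, 5.85 and 6.23 with shEZH2 and 2.32 and 2.73 with shE2F1, lower with shE2F1 alone, and at 8.45 with shSUZ12. AP-1-bearing regions were higher than the rest in every library, by 7.63 to 11.3 points, and shCtrl, at 10.8 and 9.55, overlapped shEZH2 and shE2F1. E2F-bearing regions were at -1.47 and -2.29 with shCtrl, -7.68 and -7.5 with shEZH2 and -5.52 and -0.884 with shE2F1, where the groups of shE2F1 and shCtrl overlapped.

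**Figure D5:**
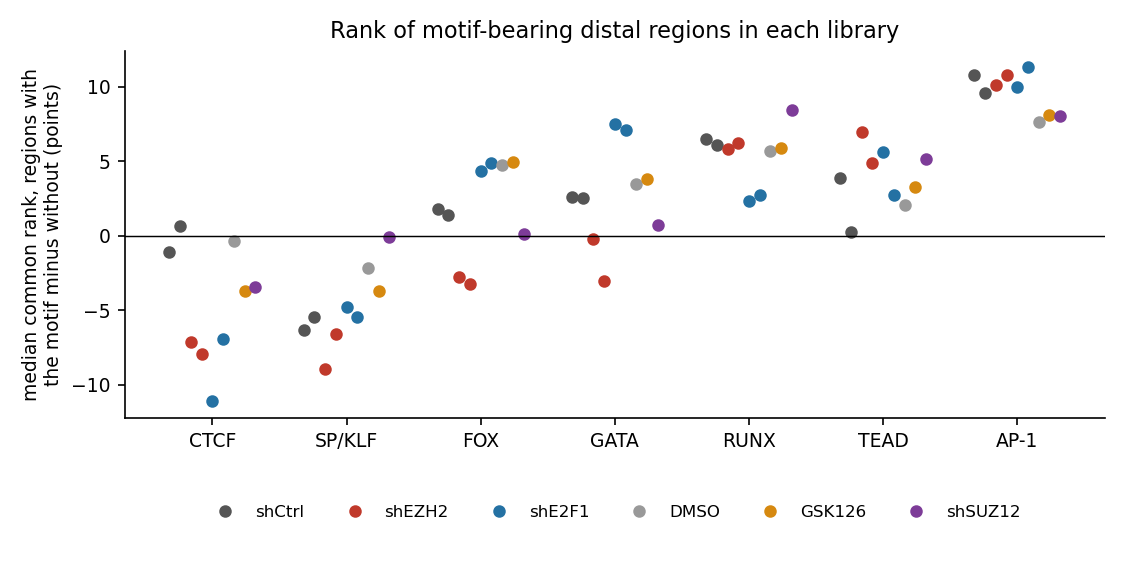
Median common rank of constitutive distal regions with a motif minus that of regions without it (vertical axis, percentile points) for 7 motifs (horizontal axis), with 1 point per library. CTCF lies at -1.12 and 0.677 with shCtrl and between -11.1 and -6.94 in the 4 shEZH2 and shE2F1 libraries, and AP-1 lies between 7.63 and 11.3 in all 9.

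Sorted by the log2 difference with shEZH2, the lowest quintile of the constitutive distal regions had CTCF in 7.35% and TEAD in 17.4%, and the highest quintile in 2.3% and 25.7%. With shE2F1, CTCF was in 7.64% of the lowest and 2.69% of the highest quintile, and RUNX in 11.5% and 6.47%. AP-1 differed little, at 36.5% and 38.7% for shEZH2 and 37.5% and 36.7% for shE2F1. The shCtrl libraries are the same in both comparisons, and these shares are descriptions of regions without a test. By gene list, the median log2 difference with shEZH2 was 0.10 for the mesenchymal and basal-like genes, 0.11 for YAP and TEAD genes and -0.02 for the developmental genes, against 0.00 over all constitutive distal regions. With shE2F1 it was -0.03, 0.07 and -0.03 against -0.01, and 0.14 for the cell cycle and E2F genes. At an unadjusted p under 0.05 in the limma fit with shEZH2 (11.3% of the constitutive distal and 9.29% of all regions), the counts were 12 of 81 regions for the mesenchymal and basal-like list, 2 of 54 for the luminal list, 4 of 50 for AP-1, 3 of 51 for YAP and TEAD, 2 of 42 for NF-kB, 3 of 29 for the cell cycle, 4 of 33 for PRC2 and 1 of 13 for the developmental list. With shE2F1 (11% and 8.9%) they were 9, 4, 3, 5, 2, 1, 5 and 1 in the same order. None of these regions passed the adjustment. Around MYC the median difference was 0.17 with shEZH2 and 0.03 with shE2F1.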

How the data were processed

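ATAC-seq of 9 MDA-MB-231 libraries was analysed from 1 deposited narrow peak list per library. The authors aligned reads with Bowtie2 (-k 4), shifted them by +4 and −5 bp for Tn5 and called peaks per library. The peak caller is not given in the sources used here. The deposited lists have no column names. From the usual narrow peak layout and the values, their columns were taken as fold enrichment (the ratio of the summit to local background), −log10 p and −log10 q, and a score that the authors' caller made from −log10 q. Every strength and tag value rests on this reading. The lowest −log10 q was 2.00. Coordinates fit GRCh38, and the submitters' processing notes name hg38 and GRCh38.

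Peaks were merged at 1 bp overlap. Distances were taken to 19970 canonical protein-coding TSS of GENCODE v44. A region's value in a list was that of its strongest peak. limma 3.58.1 (R 4.3.3; lmFit, eBayes with trend, 3 residual degrees of freedom) was run on quantile-normalized log2 fold enrichment of the 6 shCtrl, shEZH2 and shE2F1 libraries over all regions in 9 lists, with Benjamini-Hochberg adjustment. Motif, strength and width differences used exact two-sided sign-flip permutation tests over libraries. Tags at summits were recovered from fold enrichment and p under a Poisson model. The fits were tested on simulated data with normal noise and 200 planted changes per run, of 1, 1.5 or 2 on the log2 scale. At 1, 183 were recovered for shEZH2 and 163 for shE2F1, and at 1.5 and 2 all 200. From 14 to 26 regions without a planted change were also called. In the real libraries the regions near VEGFC (1.52 with shEZH2) and GNAT3 (1.53 with shE2F1) were not called. Whether recovery is as high in real libraries was not tested. Python 3.11.15, scipy 1.17.1 and pysam 0.24.0 were used. Peak lists carry no read totals, so depth is known only through these tags. Ranks do not show a change shared by all regions.

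Named regions were the 10 with the highest lowest percentile, the 5 higher and 5 lower with the smallest p per knockdown, the 3 largest differences in each direction for shSUZ12 and GSK126, and the 3 nearest the 1 kb limit on either side. Named genes were those with the most regions and the members of 8 lists. The weakest region, groups within 12.5 kb and the TGACGTCA motif were chosen after the values were seen, and the regions and lists were chosen with earlier results of these data known. Alternatives covered region definition, distance, peak thresholds, scaling, measure, libraries in the fit, and leaving out libraries. Replicate numbers did not pair the libraries by the labels. A blood marker, 1 region lower with shEZH2 and 1 lower with GSK126 are not reported here.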

Additional observations from a re-analysis of the deposited data

How the results depend on the processing

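The number of constitutive distal regions stayed within 1.5 times under 15 alternatives, from 23856 (any annotated TSS) to 32394 (without the second shEZH2 library), and from 29681 to 32394 when 1 library was left out. Differences in percentile, width and AP-1 kept their direction and their side of the threshold under all alternatives with a test, with -9.01 to -8 points, -467 to -451 bp and 9.98 to 10.5 points when 1 library was left out. CTCF was negative under 13 alternatives, with values of -0.805 to -0.543 points (exact p of 0.0156 to 0.0781) when 1 library was left out, of which 7 no longer passed. Counted once per region at its strongest summit, an alternative chosen after seeing the data, it was 0.822 points and had no test, as for AP-1 (13.8 points). The cause was not tested.

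With −log10 p as the measure, limma called 117 regions for shEZH2 and 94 for shE2F1. For shE2F1, 1 was called with a −log10 q of at least 5 and 1 with median centring, and leaving out 1 library gave from 0 to 3, the 3 without the second shE2F1 library. All other settings gave 0 for both, leave-outs of shEZH2 (0 to 0) included. The labels do not say whether replicate numbers marked a shared batch. Deviations of the replicates from their group means correlated at 0.0339, 0.0626 and -0.00128 between the groups, which cannot show how the libraries were made. With the replicate block 0 regions were called for each knockdown, as without it. Where 1 library remained in an arm, it was assumed to vary like the others. At 1.5-fold, 1764 regions differed with shSUZ12 (4.6% of all regions) and 1486 with GSK126 (3.89%). With DMSO as control 223 differed with shSUZ12, with shCtrl in place of DMSO 52 differed with GSK126, and leaving out 1 shCtrl library gave 214 to 249 for shSUZ12. Low summit tag numbers limit the comparison most in the second shEZH2 and first shE2F1 libraries. A lack of calls in groups of 2 does not show that regions did not differ.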
